A study of Mus musculus with 6 samples.

Results

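The S100 proteins and galectins described here are 10 genes, chosen by name: S100a1, S100a4, S100a6, S100a8, S100a10, S100a11, S100a13, Lgals1, Lgals3 and Lgals9. Each was read from its own row among the 22609 gene rows of the count files. They were measured by RNA-seq in primary hepatocytes, the main cell type of liver tissue, isolated and cultured from wild type C57BL/6 mice (males, 4 months of age). The treated cells received LRG1 protein (leucine-rich alpha-2-glycoprotein 1) at 20 µg/mL for 16 h (3 libraries), and the control cells received PBS (phosphate-buffered saline) for the same time (3 libraries). No allele was altered in either group, and the comparison asks what exposure to LRG1 does to the hepatocyte transcriptome. Whether replicates are distinct animals or cultures is not said in the labels, so the p-values reflect only how far these samples scatter, and that scatter may be technical.

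S100 proteins are small calcium-binding proteins of the EF-hand type that act mostly as dimers, changing the activity of the proteins they bind. Several are also released and act on receptors such as RAGE and TLR4. Galectins are lectins that bind beta-galactosides on glycoproteins; they leave the cell without a signal peptide, crosslink receptors at the surface and mark damaged vesicles inside the cell. In liver, members of both families are studied in inflammation, fibrosis and the response of hepatocytes to culture and injury.

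Total counts in genes were 19670496 to 23036332 in the LRG1 libraries and 18625748 to 19774537 in the PBS libraries. Replicates differed beyond sampling noise (chi-square over its degrees of freedom 2.88 to 4.13), so none was merged. Hepatocyte markers differed widely in level. Alb, the gene of serum albumin, averaged 18560 CPM (a count scaled to the size of its library) with LRG1 and 19230 CPM with PBS. The other 7 summed to 3743 to 3913 CPM in LRG1 and 3833 to 4165 CPM in PBS libraries. Cps1 averaged only 8.44 CPM with LRG1 and 36.3 CPM with PBS, and Tat 1.19 CPM with LRG1 and 9.20 CPM with PBS. Of 8 such markers, none was higher and 4 were lower with LRG1 (Apoa1, Hnf4a, Tat and Cps1), with log2 fold changes of -0.30 for Hnf4a to -2.94 for Tat. Among all 12301 tested genes, 25.5% were higher and 25.8% lower at the same threshold (adjusted p under 0.05).

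With LRG1, the members moved in both directions. S100a6, S100a13, Lgals1 and S100a1 were higher, and S100a10, S100a11, Lgals3 and Lgals9 were lower, while S100a4 did not pass the threshold and S100a8 was all but silent. The largest changes were decreases, of Lgals3 (1.80-fold) and S100a10 (1.76-fold). The largest increase was that of S100a6, at 1.35-fold. Of the 10 genes, 9 had enough counts to be tested. Of these 9, 4 were higher and 4 lower at an adjusted p under 0.05 (edgeR's quasi-likelihood test, adjusted over all genes tested). Among all 12301 tested genes, 51.4% passed in either direction, 25.5% as higher and 25.8% as lower, so a single call is common in this comparison. The median log2 fold change was 0.13 over the 9 members and 0.0093 over all tested genes. The 3 LRG1 values lay above the 3 PBS values for 4 members, as for 29.0% of all tested genes, and below them for 4 members, as for 28.6%. S100a1 was the exception, with overlapping groups.

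**Figure D1:**
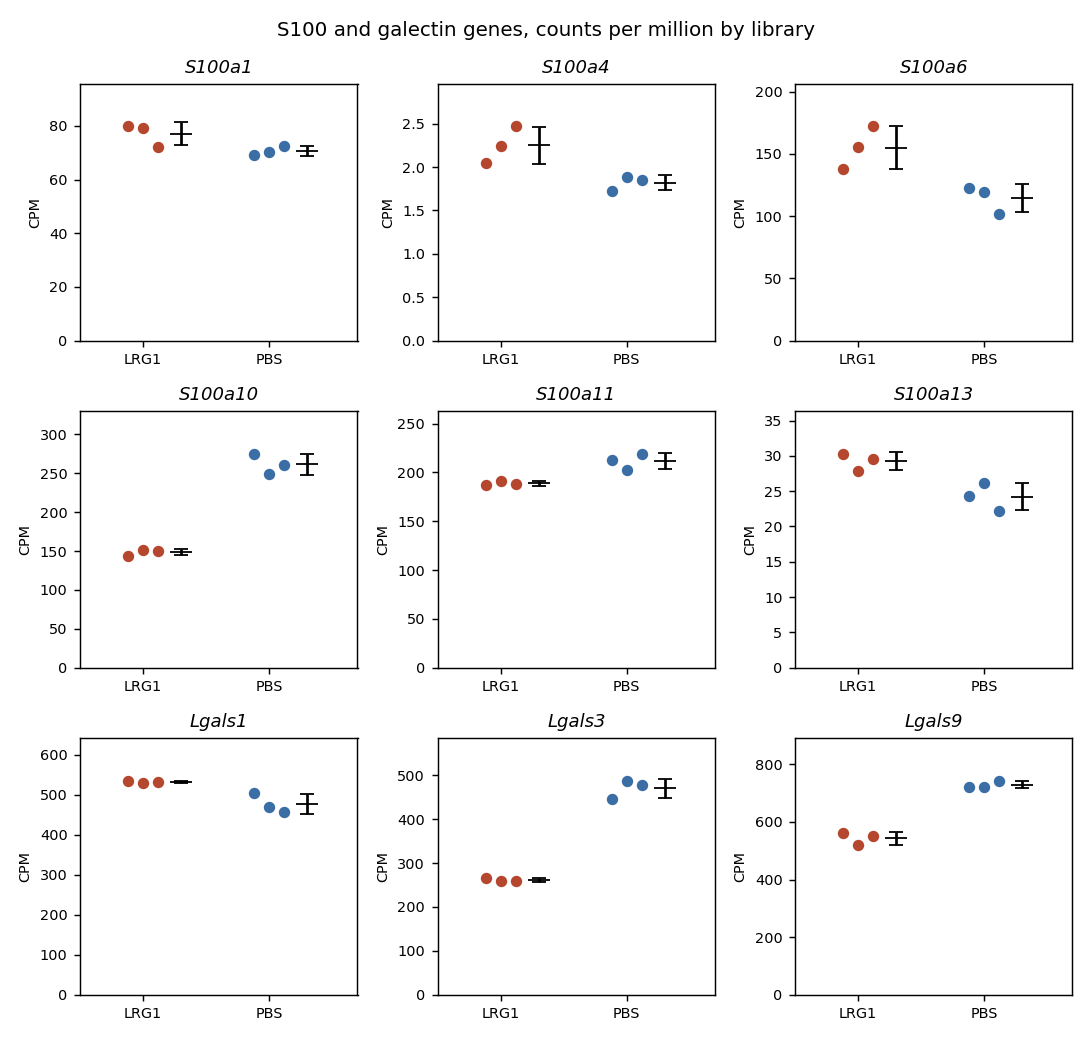
CPM of the 9 tested members in each library, LRG1 on the left and PBS on the right, with the group mean and SD as a bar beside the points (n = 3 each); every vertical axis starts at 0. S100a10, Lgals3 and Lgals9 show the widest gaps between groups, with S100a10 at 144 to 151 CPM in LRG1 libraries and 249 to 275 CPM in PBS libraries, and only S100a1 has overlapping groups.

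The S100 members were taken first, beginning with S100a10, whose protein (p11) has lost calcium binding and works as a constitutive partner of annexin A2. S100a10 had 144, 151 and 150.3 CPM in the LRG1 libraries, against 275, 249 and 261 CPM in the PBS libraries. All LRG1 values lay well below the lowest PBS value. The log2 fold change was -0.82 (SE 0.042, adjusted p = 8.57e-14), so that it fell by 43.3%, and 12.5% of all tested genes had a larger absolute change. Its range over the alternative analyses was -0.85 to -0.70.

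Anxa2, the annexin with which S100a10 protein forms a heterotetramer at membranes, moved the other way, with 1779 ± 18.95 CPM with LRG1 and 1216 ± 30.95 CPM with PBS (SD, n = 3 each; log2 fold change 0.55, SE 0.037, adjusted p = 8.87e-12). Within each library, the ratio of S100a10 counts to Anxa2 counts was 0.0815, 0.0839 and 0.0848 with LRG1 and 0.233, 0.200 and 0.214 with PBS. The ratios of the groups did not overlap. That follows from the opposite changes of both genes, each without overlap in CPM, and is no separate evidence. Being ratios within a library, they do not depend on the scaling of libraries. Ahnak, a giant scaffold protein that binds the complex of S100A10 and annexin A2, was 1.24-fold higher with LRG1 (246 ± 7.197 CPM with LRG1 and 198 ± 17.6 CPM with PBS). Dlc1, whose protein also binds S100A10, had a log2 fold change of 0.15 (adjusted p = 0.00713), a call that was lost after correction for GC content and length (0.085, adjusted p = 0.0839).

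S100a11 is the S100 gene next in order to S100a10 on chromosome 3 and encodes a partner of annexin A1. S100a11 had 187, 191 and 188 CPM with LRG1, against 213, 203 and 219 CPM with PBS. The groups did not overlap, but the gap was narrow. Its log2 fold change of -0.17 (SE 0.040, adjusted p = 0.00123) was far smaller than that of S100a10. The call was lost when trends of the counts with GC content and transcript length were removed (log2 fold change -0.042, adjusted p = 0.425), and S100a11 has the shortest transcript of the members that passed, 511 nt. In addition, 41.1% of the 50-nt words of its transcripts also occur in transcripts of the other annotated genes Gm12854, Gm7665 and Gm29240, so reads from those stretches need not align uniquely and its counts are uncertain. Anxa1 was scarce, with 19, 23 and 23 counts in the LRG1 libraries and 33, 19 and 24 counts in the PBS libraries, and did not pass (adjusted p = 0.265). The 250 bases before the start of S100a11 are shown because they hold matches of both AP-1 and GC box motifs, unlike those of the other members searched. They lie at chr3:93520246-93520495 on the plus strand of GRCm38.p6 (RefSeq), and capitals mark the motif matches.
S100a11: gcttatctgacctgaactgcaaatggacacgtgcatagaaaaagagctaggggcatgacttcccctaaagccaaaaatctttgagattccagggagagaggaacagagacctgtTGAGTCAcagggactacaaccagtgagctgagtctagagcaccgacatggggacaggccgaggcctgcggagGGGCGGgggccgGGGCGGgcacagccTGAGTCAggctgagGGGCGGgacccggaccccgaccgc

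The stretch of S100a11 holds 2 matches of the AP-1 motif TGANTCA and 3 of the GC box GGGCGG. Each motif was searched on both strands of the 250 bases before the start in 32851 RefSeq promoters, of which 6.75% held an AP-1 match and 32.7% a GC box. The other motifs searched were the antioxidant response element TGACNNNGC (10.2% of promoters), the SMAD palindrome GTCTAGAC (0.167%) and the TATA box TATAAA (12.4%). Of the 10 members, 8 matched the promoter table, all but S100a10 and Lgals1. A TATA box was found before S100a4 and S100a8, and neither the antioxidant nor the SMAD motif was found before any of the 8. No match says only that those letters do not occur in this window.

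S100a6, calcyclin, binds annexins and the ubiquitin ligase adaptor CacyBP and is known for its rise in dividing and stressed cells. S100a6 had 138, 155 and 172 CPM with LRG1, against 123, 119 and 102 CPM with PBS. The groups did not overlap, but S100a6 varied more among replicates than the other well-counted members, with a coefficient of variation of 10.95% in LRG1 and 9.67% in PBS libraries. The log2 fold change was 0.44 (SE 0.065, adjusted p = 5.07e-06), with a range of 0.36 to 0.51 over the alternatives. Cacybp had 62.8 ± 4.26 CPM with LRG1 and 58.7 ± 2.38 CPM with PBS (SD, n = 3 each) and did not pass (adjusted p = 0.140), though it passed as higher in the fit corrected for GC content and length (log2 fold change 0.17, adjusted p = 0.00485). It also passed when LRG1 replicate 1 was left out (0.14, adjusted p = 0.0498). The counts of S100a6 came to 0.960, 1.03 and 1.14 of those of S100a10 in LRG1 libraries and to 0.445, 0.479 and 0.391 in PBS libraries. The lack of overlap follows from the opposite changes of these genes and is no separate evidence. The bases before the start of S100a6 are shown as those of the member with the largest increase. They lie at chr3:90612644-90612893 on the plus strand of GRCm38.p6 (RefSeq) and held no match of the 5 motifs, so none are in capitals.
S100a6: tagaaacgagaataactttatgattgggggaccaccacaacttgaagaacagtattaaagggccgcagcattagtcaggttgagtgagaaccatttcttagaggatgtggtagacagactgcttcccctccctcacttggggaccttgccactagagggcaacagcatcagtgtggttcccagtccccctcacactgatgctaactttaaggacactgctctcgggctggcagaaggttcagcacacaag

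S100a13 takes part in the unconventional release of FGF1 and interleukin 1 alpha from cells. S100a13 had 30.3, 27.9 and 29.5 CPM with LRG1, against 24.3, 26.1 and 22.2 CPM with PBS. The groups did not overlap, by a small margin. The log2 fold change was 0.27 (SE 0.071, adjusted p = 0.00281). Among its cargo genes, Il1a, an inflammatory cytokine, was 5.07-fold higher with LRG1 at very low levels, with 22, 18 and 23 counts in LRG1 libraries and 4, 3 and 4 counts in PBS libraries (adjusted p = 3.3e-05). Il1a had enough counts to be tested only through the LRG1 libraries, where it is high. Fgf1, a growth factor without a signal peptide, averaged 29.3 CPM with LRG1 and 26.6 CPM with PBS, with overlapping groups, and did not pass (adjusted p = 0.152). It was named after its values were seen, as the other cargo of S100A13.

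S100a1, best known as a regulator of calcium cycling in heart muscle, starts beside S100a13 and is read in the opposite direction. S100a1 had 79.8, 79.3 and 72.1 CPM with LRG1, against 69.0, 70.4 and 72.5 CPM with PBS. The lowest LRG1 library fell below the highest PBS library. Its log2 fold change was 0.13 (SE 0.050, adjusted p = 0.0372). The call was lost with DESeq2 (0.12, adjusted p = 0.0847) and with a replicate block (0.12, adjusted p = 0.0706). It was also lost on leaving out LRG1 replicate 1 (0.097, adjusted p = 0.153), LRG1 replicate 2 (0.11, adjusted p = 0.145), PBS replicate 1 (0.11, adjusted p = 0.121) or PBS replicate 2 (0.12, adjusted p = 0.0745). Corrected for GC content and length it was 0.21 (adjusted p = 0.000782), and the range over all alternatives was 0.097 to 0.21. Atp2a2, the SERCA2 calcium pump that S100A1 binds in heart muscle, was lower with LRG1, at 424 ± 7.46 CPM with LRG1 and 466 ± 13.03 CPM with PBS (log2 fold change -0.14, adjusted p = 0.00366).

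The ratio of S100a13 to S100a1 counts was 0.380, 0.351 and 0.409 in LRG1 libraries and 0.352, 0.371 and 0.307 in PBS libraries, so the groups overlapped for this neighbouring pair. Their RefSeq gene spans, which cover all transcripts, overlap by 98 bases on opposite strands in GRCm38.p6. Whether the counting used strand is not given in the sources used here, so reads of that stretch could not be assigned with certainty. The 104 bases between the starts given in the promoter table, which both genes have before them, are shown because they are shared. They lie at chr3:90514331-90514434 and are given on the plus strand, that of S100a13 (GRCm38.p6, RefSeq). They held no match of the 5 motifs.
S100a1 and S100a13: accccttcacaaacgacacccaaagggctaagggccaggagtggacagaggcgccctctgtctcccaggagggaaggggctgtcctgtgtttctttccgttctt

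S100a4, also called FSP1, binds nonmuscle myosin IIA and is used as a marker of fibroblasts and macrophages. It was counted only 41, 52 and 49 times in LRG1 libraries and 34, 35 and 35 times in PBS libraries, or 2.25 ± 0.214 CPM with LRG1 and 1.82 ± 0.0885 CPM with PBS (SD, n = 3 each). The groups did not overlap, yet the difference did not pass (log2 fold change 0.31, 95% interval -0.10 to 0.72, adjusted p = 0.208), and it stayed above the threshold in all 17 alternatives (adjusted p = 0.0690 to 0.413). The summed counts, 142 with LRG1 and 104 with PBS, gave a ratio of 1.24 (95% counting interval 0.954 to 1.61). In the GENCODE M21 annotation, 302 of its 584 exon bases are shared with Gm42674 on the same strand. Markers of stellate cells and fibroblasts were sparse in both groups, with a summed level over 10 genes of 23.6 to 27.0 CPM in LRG1 and 25.4 to 31.9 CPM in PBS libraries. Of the 6 of these markers that could be tested, 5 did not pass and Reln was lower, as were 25.8% of all tested genes. Lrat, Lum, Hand2 and Ngfr were too sparse to test. Lrat had 0, 1 and 0 counts in LRG1 libraries and 11, 4 and 5 counts in PBS libraries. Lum also had fewer counts in the LRG1 group, whereas Hand2 and Ngfr had more. The part of these cells in the S100a4 value was not tested. In bulk RNA, fewer cells of a type and less RNA per cell cannot be told apart.

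S100a8 encodes one chain of calprotectin, the abundant protein of neutrophils, with S100a9 as the other chain. Across the libraries S100a8 had 1 count, in LRG1 replicate 2, and none in the PBS libraries. Their exact Poisson 95% intervals are 0.0253 to 5.57 counts over the LRG1 group and 0 to 3.69 counts over the PBS group. S100a9 had no count in any library, with an exact Poisson 95% interval of 0 to 3.69 counts over each group. A floor set at 3 counts over a group (counting error only) equals 0.0476 CPM in LRG1 and 0.0525 CPM in PBS libraries. Neither gene was tested. Of 9 neutrophil markers with a row, 5 (Elane, Mpo, Camp, Retnlg and Cxcr2) were at 0 in every library, and the 9 together reached 0.151 to 0.216 CPM with LRG1 and 0.0539 to 0.159 CPM with PBS. Of 6 lymphocyte markers, 5 were at 0 throughout and Cd79a had 1 count in each of PBS replicates 2 and 3. Of the receptors for released S100 proteins, Tlr4 averaged 6.54 ± 0.448 CPM with LRG1 and 7.14 ± 0.311 CPM with PBS (adjusted p = 0.399), and Ager (RAGE) had at most 8 counts in a library. Tlr4 and Ager were named after their values were seen.

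**Figure D2:**
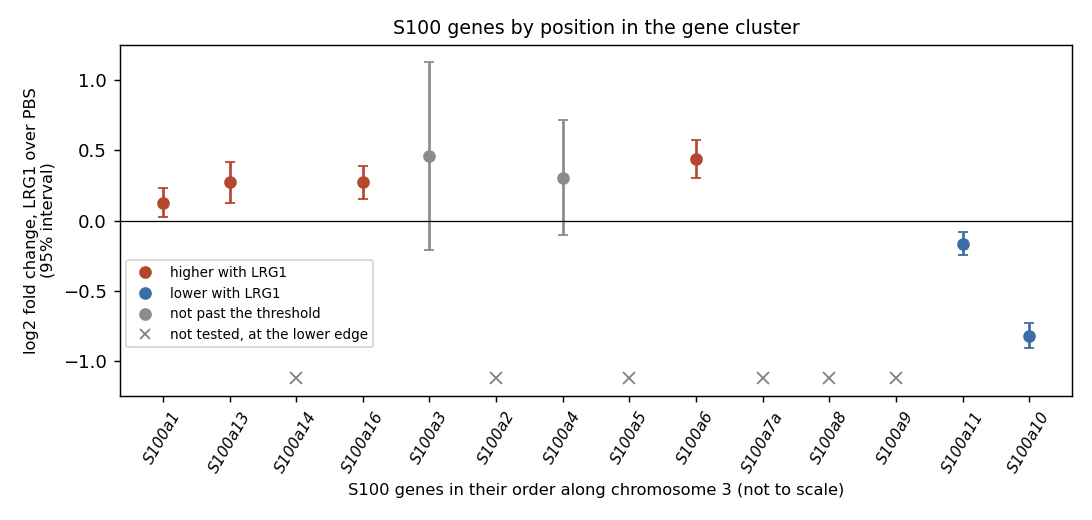
Log2 fold change (LRG1 over PBS, with its 95% interval) of the 14 S100 genes named in the text on chromosome 3, in their RefSeq order and not to scale; crosses at the lower edge mark genes with too few counts to test. The points from S100a1 to S100a6 all lie above 0 and those of S100a11 and S100a10, at the other end, below it.

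The 7 S100 members and most of their relatives lie on mouse chromosome 3. In RefSeq order they run from S100a1 and S100a13 through S100a16, S100a3, S100a4 and S100a6 to S100a8, S100a9 and then S100a11 and S100a10. The 6 tested genes from S100a1 to S100a6 had positive log2 fold changes of 0.13 to 0.46, of which S100a3 and S100a4 did not pass. S100a11 and S100a10, at the far end beyond the silent S100a8 and S100a9, had negative ones. S100a16, a widely expressed relative, had 1435, 1624 and 1296 counts in LRG1 libraries and 1043, 1148 and 1071 counts in PBS libraries (log2 fold change 0.27, SE 0.057, adjusted p = 0.000315). S100a3 was counted 24, 15 and 32 times with LRG1 and 19, 14 and 14 times with PBS, and its call depended on 1 library. It did not pass in the full comparison (0.46, adjusted p = 0.251) but did so without LRG1 replicate 2 (0.77, adjusted p = 0.0487). S100a14, which lies between S100a13 and S100a16, had no count with LRG1 and 2, 0 and 4 counts with PBS. The exact Poisson 95% intervals of the group sums overlapped (0 to 3.69 counts with LRG1 and 2.20 to 13.1 counts with PBS), which is no test of a difference. In the edgeR fit without a filter on low counts its log2 fold change was -4.15 (adjusted p = 0.0472), opposite in sign to its tested neighbours. The size of that change is poorly determined, since the LRG1 group had no count and the PBS group only 6. With LRG1 set at a floor of 3 counts, S100a14 was 2.21-fold lower. S100g, calbindin D9k, which lies elsewhere in the genome, fell below the filter, with 3, 3 and 1 counts in LRG1 libraries and 10, 9 and 12 counts in PBS libraries, a ratio of 0.205 (95% counting interval 0.0760 to 0.474). Of the 9 other S100 genes, S100a16 and S100a3 were the only ones tested; S100a5, S100a7a, S100a9 and S100b had no count at all, and S100z had 2 counts, both in PBS libraries. S100a2, added after its values were seen, had 1 count in each group. The relation of position to direction was not tested.

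Of the galectin members, Lgals3 changed most. Lgals3 protein, the chimeric galectin that joins a lectin domain to a long flexible tail, is known as Mac-2 on macrophages and is raised in injured liver. Lgals3 had 266, 259 and 259 CPM with LRG1, against 445, 487 and 477 CPM with PBS. Every LRG1 library was far below every PBS library, and the replicates of each group lay close together. The log2 fold change was -0.85 (SE 0.040, adjusted p = 1.67e-14), so that it fell by 44.4%, and it ranked 1481 of the 12301 tested genes by absolute change. Over the alternatives it ran from -0.89 to -0.81. The bases before the start of Lgals3 are shown because it had the largest change among the members. They lie at chr14:47373610-47373859 on the plus strand of GRCm38.p6 (RefSeq), and the capitals mark a GC box on the reverse strand.
Lgals3: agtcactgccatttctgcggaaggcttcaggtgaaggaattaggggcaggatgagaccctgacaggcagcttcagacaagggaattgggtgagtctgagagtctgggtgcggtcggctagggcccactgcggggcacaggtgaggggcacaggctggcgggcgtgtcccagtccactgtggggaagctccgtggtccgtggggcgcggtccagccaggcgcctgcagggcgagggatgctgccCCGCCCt

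Lgals3 is a gene of macrophages and bile duct cells as well as of cultured hepatocytes. Of 10 tested macrophage and Kupffer cell markers, Marco was higher, Cd68 and Cd5l were lower and 7 did not pass. Vsig4, too sparse to test, had 5, 5 and 5 counts in LRG1 libraries and 16, 9 and 14 counts in PBS libraries. Timd4, also not tested, had at most 1 count in a library. The 12 markers summed to 193 to 219 CPM in LRG1 and 232 to 276 CPM in PBS libraries, of which Cd68, a lysosomal protein, made up most. The other 11 summed to 17.1 to 23.45 CPM in LRG1 and 19.4 to 22.1 CPM in PBS libraries, so the groups overlapped. Of the bile duct markers, Krt19 was lower with LRG1 (3.24 ± 0.248 CPM with LRG1 and 18.4 ± 3.07 CPM with PBS), Sox9 was higher (84.3 ± 2.004 CPM with LRG1 and 52.6 ± 0.498 CPM with PBS) and Spp1 did not pass (adjusted p = 0.978), while Epcam, Krt7 and Cftr were too sparse to test. Krt7 had 7, 11 and 7 counts in LRG1 libraries and 4, 3 and 2 counts in PBS libraries. Epcam had 17, 22 and 9 counts in LRG1 libraries and 6, 9 and 7 counts in PBS libraries. The bile duct list summed to 4325 to 4643 CPM with LRG1 and 4446 to 4630 CPM with PBS, nearly all of it Spp1. The other 5 bile duct markers, mostly Sox9, summed to 86.8 to 90.5 CPM with LRG1 and 69.0 to 74.3 CPM with PBS, without overlap. Of 8 endothelial markers, Stab2 and Lyve1 were lower with LRG1 and 4 of the 6 tested did not pass, with sums of 33.9 to 37.9 CPM in LRG1 and 40.2 to 42.4 CPM in PBS libraries. For comparison with these counts of markers, 25.5% of all tested genes were higher and 25.8% lower. The part of these cell types in the values of Lgals3 and Lgals9 was not tested.

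Lgals9 encodes a galectin with a tandem of carbohydrate-recognition domains and ligands on immune cells. Lgals9 had 560.1, 518 and 550.3 CPM with LRG1, against 722, 722 and 742 CPM with PBS. The groups were well apart. Its log2 fold change was -0.43 (SE 0.039, adjusted p = 1.96e-09), so that it fell by 25.5%, with a range of -0.45 to -0.35 over the alternatives. Havcr2 (TIM-3), a receptor of galectin 9 on immune cells, had 10, 6 and 7 counts in LRG1 libraries and 0, 3 and 1 counts in PBS libraries and was not tested; it too was named after its values were seen. Slc2a2, the glucose transporter GLUT2 that galectin 9 holds at the surface of beta cells, was 5.16-fold lower with LRG1, at 3.64 ± 0.884 CPM with LRG1 and 18.9 ± 1.75 CPM with PBS (adjusted p = 2.46e-13).

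Lgals1, the dimeric prototype galectin, is abundant in mesenchymal cells and rises in many tissues under repair. Lgals1 had 534, 530 and 531 CPM with LRG1, against 505, 469 and 456 CPM with PBS. The LRG1 libraries were nearly equal to each other and lay above all PBS libraries. The log2 fold change was small, 0.16 (SE 0.040, adjusted p = 0.00202), or 11.6% higher, and its range over the alternatives was 0.13 to 0.22. The counts of Lgals1 were 2.01, 2.05 and 2.05 times those of Lgals3 in LRG1 libraries and 1.14, 0.963 and 0.955 times in PBS libraries. The groups did not overlap, which again follows from the opposite changes of Lgals1 and Lgals3.

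**Figure D3:**
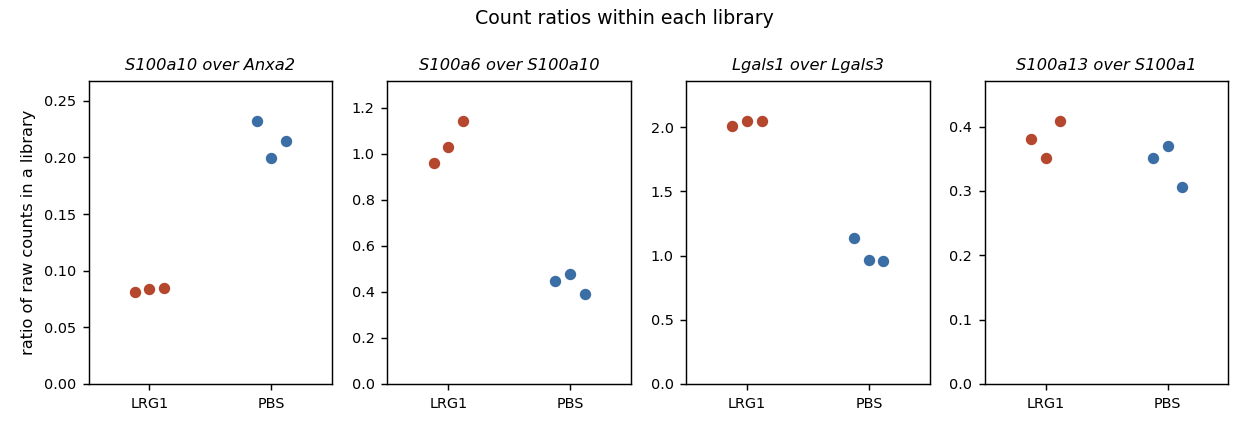
Ratios of raw counts of gene pairs within each library, LRG1 on the left and PBS on the right, 1 point per library, with vertical axes from 0. S100a10 over Anxa2 is 0.0815 to 0.0848 with LRG1 and 0.200 to 0.233 with PBS. S100a6 over S100a10 and Lgals1 over Lgals3 also separate the groups, whereas S100a13 over S100a1 does not. Each separated pair sets a gene higher with LRG1 against a lower one, so the separation is no separate evidence.

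Among the galectin genes outside the members, Lgals2, a galectin best known from the gut, was nearly absent from PBS libraries. It was counted 21, 28 and 14 times in LRG1 libraries and 0, 2 and 1 times in PBS libraries. With 63 counts in the LRG1 group and 3 in the PBS group, the ratio was 19.0 (95% counting interval 6.22 to 94.7). The edgeR fit gave an adjusted p of 2.2e-06, but Lgals2 had enough counts to be tested only through the LRG1 libraries, where it is high. The size of the change rested on single PBS libraries: the fitted log2 fold change was 4.09 with all libraries, 4.97 without PBS replicate 2 and 3.54 without PBS replicate 1. The level of Lgals2 with LRG1 was still only 0.987 ± 0.257 CPM (SD, n = 3). Lgalsl, a galectin-related protein held to lack sugar binding and listed in the files as 1110067D22Rik, had 141, 168 and 156 counts in LRG1 libraries and 277, 229 and 238 counts in PBS libraries (log2 fold change -0.82, SE 0.10, adjusted p = 4.23e-07). Lgals8, a tandem galectin that senses damaged vesicles, averaged 156 ± 3.09 CPM with LRG1 and 160.2 ± 1.91 CPM with PBS and did not pass (95% interval of the log2 fold change -0.12 to 0.038). It overlaps Heatr1 on the opposite strand by 155 exon bases. Lgals4, Lgals6 and Lgals7 had at most 3 counts in a library, and Lgals12 and Grifin had none.

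Partner genes of S100 proteins were mixed in direction. Of 15 listed, 14 were tested, and 4 were higher (Anxa2, Ahnak, Il1a and Dlc1), 3 lower (Anxa6, Atp2a2 and Bsg) while 7 did not pass. Among all tested genes 51.4% passed, 25.5% as higher and 25.8% as lower, so these counts set the partners little apart. The median log2 fold change of the partners was 0.040. Anxa6, a large annexin to which several S100 proteins bind, was 1.18-fold lower (324 ± 5.36 CPM with LRG1 and 382 ± 12.9 CPM with PBS). Bsg (basigin), a receptor of S100A9 and named after its values were seen, had overlapping groups and passed narrowly (log2 fold change -0.13, adjusted p = 0.0346). The call of Bsg was lost in 8 of 17 alternatives, among them those without LRG1 replicate 2 (-0.11, adjusted p = 0.119), without LRG1 replicate 3 (-0.10, adjusted p = 0.171) and without PBS replicate 2 (-0.065, adjusted p = 0.258).

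Ligands of galectins and the enzymes that build or mask their sugars also moved in both directions. Of 20 listed genes, 18 were tested, of which 7 were higher, 4 lower and 7 did not pass. The shares among all tested genes were 25.5% higher and 25.8% lower, and whether the list differs from them was not tested. The median log2 fold change of the list was 0.030. Among the glycoprotein ligands, Cd44, the hyaluronan receptor, averaged 309.6 ± 10.45 CPM with LRG1 and 169.9 ± 12.16 CPM with PBS (log2 fold change 0.87, adjusted p = 1.25e-13), and Itgb1, the integrin beta 1 chain, averaged 1651 ± 42.85 CPM with LRG1 and 1096 ± 74.45 CPM with PBS (0.59, adjusted p = 5.35e-11). Lamp1, a heavily glycosylated protein of the lysosome membrane, was lower (-0.32, adjusted p = 9.39e-08). Lgals3bp, a secreted galectin ligand, averaged 393 ± 28.6 CPM with LRG1 and 389 ± 21.8 CPM with PBS and did not pass (adjusted p = 0.864).

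Among the enzymes, Mgat5 adds the branch on N-glycans that galectin 3 prefers. It had 346, 399 and 342 counts in LRG1 libraries and 208, 213 and 179 counts in PBS libraries, and was 1.64-fold higher in the LRG1 group (0.71 as log2 fold change, SE 0.090, adjusted p = 4.58e-07). B4galt1, which adds the galactose that galectins bind, was 1.29-fold higher (adjusted p = 5.6e-08), and St6gal1, whose sialic acid blocks galectin binding, was 1.27-fold higher (adjusted p = 3.89e-08). Of the rest past the threshold, named after their values were seen, Trim16 and Gcnt1 were higher (log2 fold changes 1.33 for Trim16 and 1.46 for Gcnt1, which had at most 15 counts in a library) and Mgat1 and C1galt1c1 lower (-0.21 and -0.23). Gcnt1 had enough counts to be tested only through the LRG1 libraries, where it is high. The call of C1galt1c1 was lost in 8 of 17 alternatives, where its adjusted p ran up to 0.253. These included the fits without LRG1 replicate 1 (-0.19, adjusted p = 0.104), LRG1 replicate 2 (-0.24, adjusted p = 0.0556), PBS replicate 1 (-0.21, adjusted p = 0.0932) and PBS replicate 2 (-0.23, adjusted p = 0.0528).

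**Figure D4:**
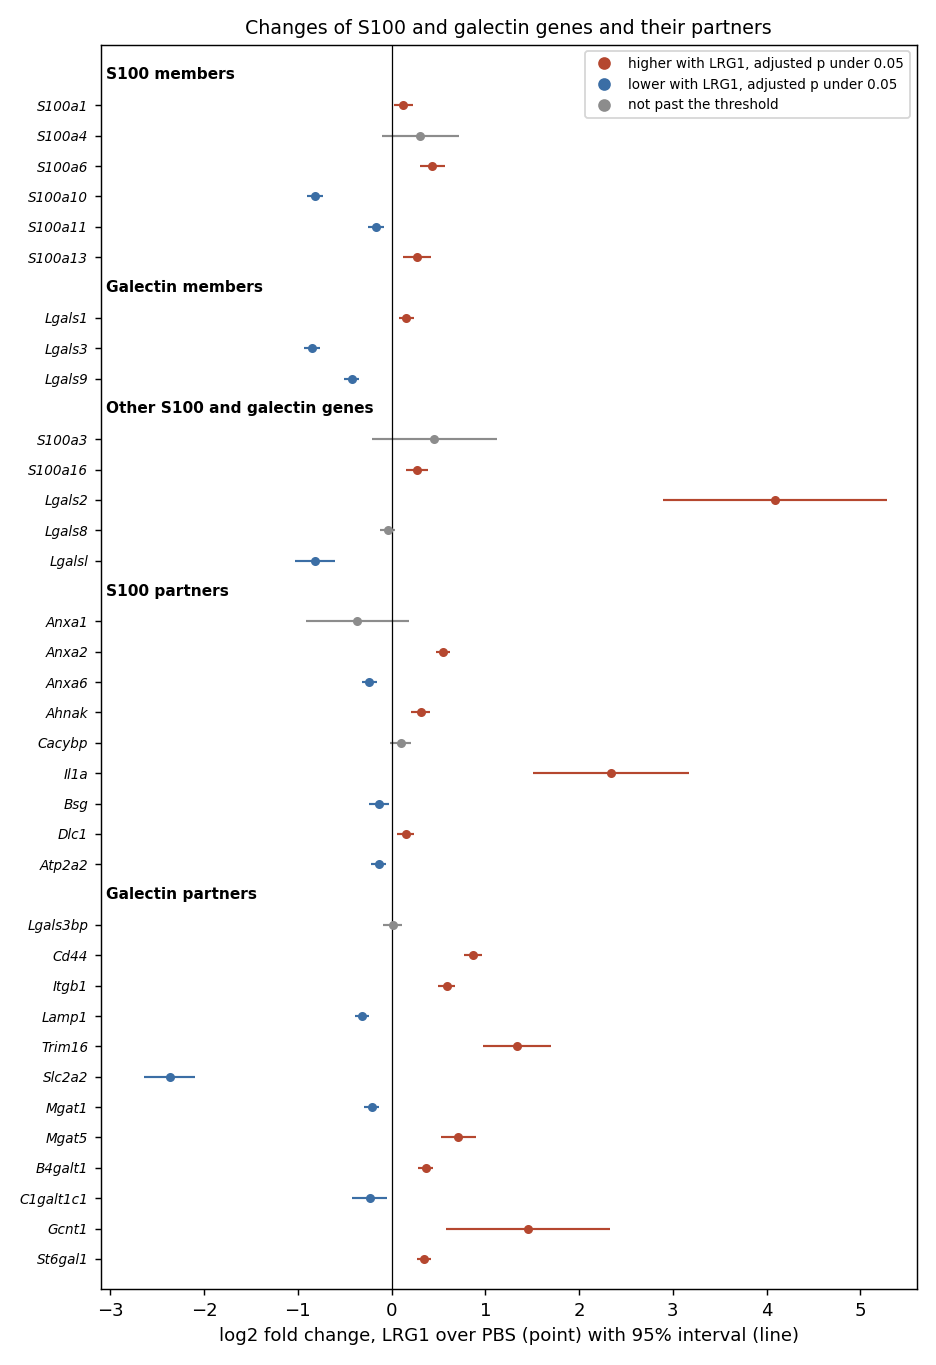
Log2 fold change of LRG1 over PBS (point) with its 95% interval (line) for the tested members, the other tested S100 and galectin genes, and those partner genes that passed the threshold or are named as direct partners. S100a10 at -0.82 and Lgals3 at -0.85 lie furthest below 0 among the members, while Anxa2, Cd44 and Mgat5 lie above 0.

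To compare levels between genes, CPM was divided by the transcript length in kilobases. S100a11 was left out of the order, since 41.1% of its 50-nt words are shared with other genes and its level may be understated. As counted, S100a11 had 369 ± 4.36 CPM per kb with LRG1 and 414 ± 16.5 CPM per kb with PBS. S100a4 was kept in the order, but 56.3% of its 50-nt words are shared with Gm42674, so its level may be understated too. Among the other tested members Lgals1 had the highest level in both groups, at 664.5 ± 3.095 CPM per kb with LRG1 and 595.5 ± 31.69 CPM per kb with PBS (SD, n = 3 each). With LRG1 it was followed by Lgals9 (350 ± 14.1), S100a10 (217 ± 5.85), S100a6 (212 ± 23.3), Lgals3 (192 ± 3.27), S100a1 (114 ± 6.34), S100a13 (40.9 ± 1.76) and S100a4 (4.52 ± 0.429), all in CPM per kb. In that order the library values of S100a10 and S100a6 overlapped, as did those of S100a6 and Lgals3. With PBS the order was Lgals1, Lgals9 (469 ± 7.49), S100a10 (382 ± 19.4), Lgals3 (346 ± 16.3), S100a6 (157 ± 15.2), S100a1 (104 ± 2.58), S100a13 (33.9 ± 2.70) and S100a4 (3.66 ± 0.177), and no neighbours in that order overlapped. Lgals3 and S100a6 were thus separate with PBS and overlapped with LRG1. Summed over the 10 genes, the level was 1914 to 1954 CPM in LRG1 libraries and 2347 to 2378 CPM in PBS libraries, to which Lgals3, Lgals9 and S100a10 contributed the differences of greatest size.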

How the data were processed

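For every library the authors deposited a table of raw counts by gene symbol. Per the labels' protocols, libraries were made with a stranded mRNA kit and read as 50-nt single ends. Per the submitters' processing notes, bcl2fastq, TopHat2, HTSeq and build mm9 were used; for versions, annotation and strand setting the sources used here give nothing. The 5 summary rows were left out of library sizes; 8.96 to 10.3% of uniquely aligned reads fell in no gene, and 58.2 to 59.3% of row totals were alignments that were not unique.

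From these counts, genes were filtered with filterByExpr (minimum count 10; 12301 kept, 99.95% of counts) and tested with edgeR 4.0.16 in R 4.3.3 (TMM, quasi-likelihood F test on treatment, Benjamini-Hochberg adjustment over all tested genes, threshold 0.05). SEs come from the F statistic. CPM uses TMM-scaled library sizes. Transcript lengths, GC content, shared 50-nt words and exon overlaps come from GENCODE M21 and gene order from RefSeq, both on GRCm38 and matched by symbol; 99.0% of tested genes had a length and GC content. Counting intervals and floors cover counting error only. The members, lists and motifs were chosen with earlier results of these data known. Named genes are all members, every tested family gene, up to 6 called genes with the smallest p per partner list, and Anxa1, Anxa2, Cacybp, Lgals3bp and Mgat5; others are marked in the text. Alternatives were other scalings, filters and tests (DESeq2 1.42.0, limma-voom 3.58.1, a robust fit), a replicate block, removal of GC and length trends, and leaving out each library. The pipeline was tested on simulated counts. Ly6g was not analysed here.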

Additional observations from a re-analysis of the deposited data

How the results depend on the processing

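The calls of S100a6, S100a10, S100a13, Lgals1, Lgals3 and Lgals9 kept their direction and their side of the threshold in all 17 alternatives; those of S100a1 and S100a11 did not, as given above, and the cause was not tested. The number of members called higher was 3 or 4 and that called lower 3 or 4. Without a filter on low counts, 5 of the other S100 and galectin genes passed, against 3 with it, S100g and S100a14 being added because they were then tested. Without the filter S100a8 had an adjusted p of 0.519. Values near 0 changed sign: Lgals8 was 0.0053 with GC and length trends removed and 0.0057 with the replicate block added, and Lgals3bp was -0.0098 and -0.010 in those fits and ran from -0.049 to 0.062 when single libraries were left out, none of them past the threshold. Removing GC and length trends also removes any effect of treatment that follows them.

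No sign of pairing by replicate number was seen. Deviations from the group means correlated at -0.123, -0.0142 and -0.119 between libraries of the same number, and no library correlated best with its own number. Deviations within a group cancel out, so these values are not independent and cannot show that the samples were unpaired. With the replicate block, 2906 genes were higher and 2984 lower, and 3 members were higher and 4 lower, the one lost being S100a1. Depth limits S100a4, S100a3, Anxa1 and the genes with a few counts, whose 95% intervals are the widest given; that of S100a4 runs from -0.10 to 0.72.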
